A study of Phoxinus septimaniae with 18 samples.

Results

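The livers of minnows caught at a saline river station were compared with the livers of minnows caught upstream. The comparison used 6 of the 18 libraries of the study, 3 from the salt station and 3 from the reference station, chosen by tissue and station as the library titles give them. The fish were an invasive hybrid minnow, Phoxinus septimaniae x P. dragarum, sampled in the Llobregat River. The salt station lies near a potash mine and measured 18.1 ppt, and the reference station had lower salinity. The other 12 libraries are brains and gills, with titles that give the same station labels. Fish codes of reference livers and brains carry the letter C, while some reference gills carry the letter A. What that letter stands for is not settled here. All fish were wild and were fixed after capture, and the labels used here give neither their age nor their sex. Salinity and station coincide, so a difference in salinity and any other difference of place cannot be told apart.

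The liver of a teleost makes most plasma proteins, stores and releases sugar and fat, and clears nitrogen and foreign compounds. In mature females it also makes the yolk precursors that the blood carries to the ovary. In carp-like fishes pancreatic tissue is scattered through the liver, so a liver sample can hold RNA of both. When the surrounding water turns saline, a freshwater fish loses water and gains ions, and the gills, gut and kidney do most of the ion transport, while the liver supplies fuel and makes some of the small organic molecules that protect cells against osmotic stress.

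The data are raw counts of reads per assembled transcript, 31568 transcripts grouped by the Trinity assembler into 14896 genes. A protein hit, that is, an accession with a code for its source that the authors attached, stands on 23741 of these transcripts, or 75.2%. Identifiers pair the accessions with no gene name apart from a few mitochondrial entries, so a hit is given below by its accession, with no name or role. Unless another code is shown, the code is DANRE. For the same reason the tissue could not be checked against its defining markers. Total counts ran from 22183499 to 39881549 in salt livers and from 27544104 to 33034328 in reference livers. The reads carry no molecular identifiers and may repeat a molecule, so counting limits given below cover counting error only.

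One protein hit, ENSDARP00000050237, filled a large part of 4 livers. It took 40.9%, 42.6% and 33.2% of all counts in salt livers 1, 2 and 3, against 28.9%, 0.000151% and 0.000164% in reference livers 1, 2 and 3. The groups did not overlap, but reference liver 1 stood close to the salt livers and far from its own group. The files do not settle whether the fish or its station label sets this liver apart, and every reference mean below includes it unless stated. The mean was 38.9% ± 4.997 in salt livers and 9.64% ± 16.7 in reference livers (SD, n = 3 each). The difference was 29.3 percentage points. It is a description without a test, since the hit was singled out for its share in these livers. Fewer cells of a type and less RNA per cell cannot be told apart in such bulk samples.

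The hit is spread over 20 transcripts in 10 Trinity genes, and 1 of these genes, DN2838_c0_g1 with 6 transcripts, held nearly all of it. That gene gave 97.4%, 97.5% and 96.5% of the hit's counts in salt livers 1, 2 and 3 and 97.6% in reference liver 1. The counts were spread over its transcripts in different proportions in the 4 livers. How reads were assigned among alike transcripts is not stated, so these are shares of counts and not a measure of transcript use. Transcript DN2838_c0_g1_i4 made up 33.2%, 13.1% and 37.9% of the hit in the salt livers and 29.3% in reference liver 1. Transcript DN2838_c0_g1_i9 made up 0.00882%, 24.5% and 2.38% in the salt livers and 5.93% in reference liver 1. Salt liver 1 thus had almost none of a transcript that was among the leading ones in salt liver 2. Transcript DN2838_c0_g1_i14 was more even, with 25.8%, 21.3% and 28.2% in the salt livers and 26.6% in reference liver 1. Each of the 20 transcripts had at least 8 counts in each of these 4 livers, and at most 20 counts in reference livers 2 and 3.

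**Figure D1:**
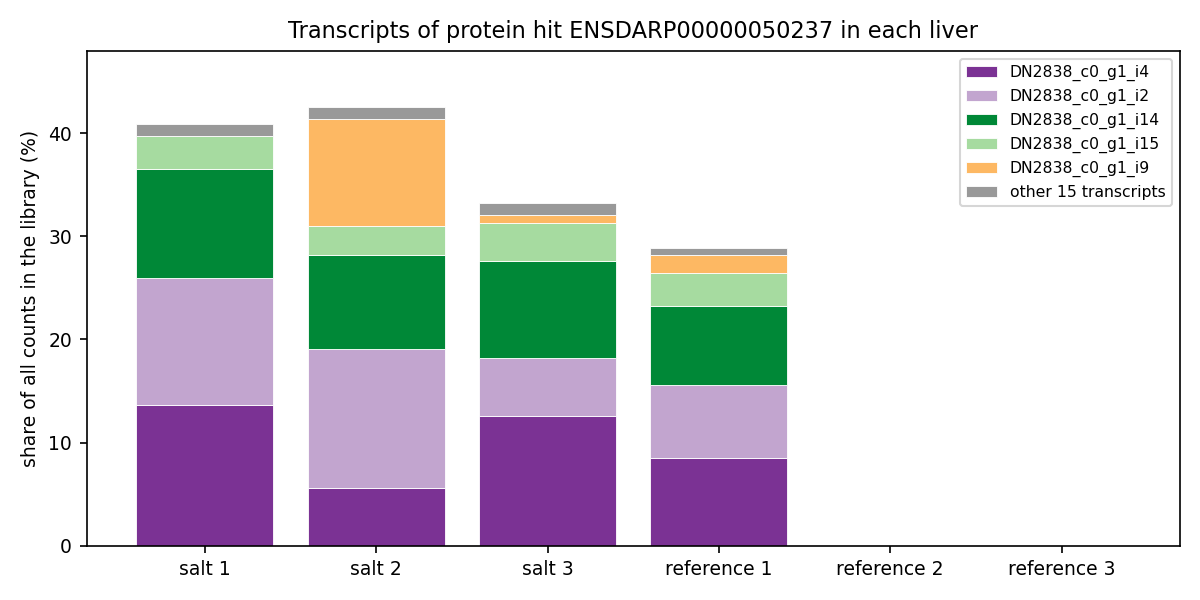
Share of all counts (%) taken by protein hit ENSDARP00000050237 in each liver, stacked by its 5 leading transcripts and the other 15. The 3 salt bars reach 40.9%, 42.6% and 33.2% and reference 1 reaches 28.9%, while reference 2 and reference 3 are at 0.000151% and 0.000164% and show no bar.

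Because these counts compress everything else, all values from here on use library sizes without that hit, 12741834 to 23562381 counts in salt livers and 19580290 to 33034278 in reference livers. CPM, the count scaled to a common library size, uses these sizes after TMM scaling, a correction for differences in composition.

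Among the 10 other hits with the highest mean share, 6 followed the same split of the livers. These 6 were ENSDARP00000072693, ENSDARP00000072738, ENSDARP00000101309, ENSDARP00000096034, ENSDARP00000115012 and ENSDARP00000023158. Together they took 36.9%, 39.2% and 25.6% of the remaining counts in salt livers 1, 2 and 3, against 20.5%, 0.000118% and 0.000132% in reference livers 1, 2 and 3. Each had at most 13 counts in reference liver 2 and at most 16 in reference liver 3. Reference liver 1 was below every salt liver and far above the other reference livers. The 6 hits are not all separate from the dominant hit. Transcript DN2838_c0_g1_i7, counted under the dominant hit, also lists ENSDARP00000101309, which is among the 6. Outside the dominant hit, its main gene DN2838_c0_g1 still held 1842642, 859006 and 1074033 counts in salt livers, against 779345, 7 and 4 in reference livers.

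The largest of them, ENSDARP00000072693, took 10.22%, 11.7% and 6.63% of the remaining counts in salt livers, against 5.67% in reference liver 1 and 11 and 12 counts in reference livers 2 and 3. ENSDARP00000115012, carried by a single transcript, had 863070, 609046 and 769459 counts in salt livers, against 644229, 7 and 0 in reference livers. In that library the 0 leaves room for up to 3 counts. None of the 6 passed edgeR's quasi-likelihood test with all 6 livers, with Benjamini-Hochberg adjusted p from 0.907 to 0.936. Leaving out reference liver 1 brought 4 of the 6 under 0.05, namely ENSDARP00000072693, ENSDARP00000072738, ENSDARP00000096034 and ENSDARP00000023158, each at 0.0143 in the same test. That fit compares 3 salt livers with 2 reference livers. The 6 hits were grouped for being near 0 in these same 2 livers, so a low p there follows in part from the choice. The log2 fold changes of the 6 hits were 2.19 or more with all livers, the highest at 3.203, and 17.79 to 20.34 without reference liver 1.

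The other 4 of the 10 were abundant in all 6 livers. ENSDARP00000112199 took 1.71%, 2.67% and 3.18% of the remaining counts in salt livers, against 0.497%, 12.8% and 6.95% in reference livers. ENSDARP00000058963 took 0.480%, 1.92% and 2.03% in salt livers, against 0.348%, 6.38% and 4.53% in reference livers. For both, reference liver 1 was the lowest of all 6 livers, so the groups overlapped. ENSDARP00000124424 took 2.34%, 0.817% and 2.96% in salt livers, against 6.77%, 2.20% and 8.19% in reference livers. ENSDARP00000100241 took 0.929%, 0.811% and 1.47% in salt livers, against 0.602%, 4.78% and 2.39% in reference livers. Reference liver 2 for the first and reference liver 1 for the second lay within or below the range of the salt livers, so the groups overlapped again, and none of the 4 passed edgeR's test (adjusted p from 0.873 to 0.920).

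The 10 leading hits of each liver, whichever they were, held 43.9%, 47.6% and 35.6% of the remaining counts in salt livers, against 34.8%, 35.1% and 34.6% in reference livers. The mean was 42.4% ± 6.15 in salt livers and 34.9% ± 0.251 in reference livers (SD, n = 3 each). Salt livers 1 and 2 were well above the rest, and salt liver 3 was just above the reference livers. The difference of 7.51 percentage points gave p = 0.1 in an exact two-sided permutation test, the smallest p that 3 libraries against 3 allow. Reference liver 1 reached nearly the same share as reference livers 2 and 3 with leading hits that differed in part. ENSDARP00000124424 was high in reference livers 1 and 3, at 6.77% and 8.19%. ENSDARP00000072693 took 5.67% in reference liver 1 and was near 0 in reference livers 2 and 3.

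**Figure D2:**
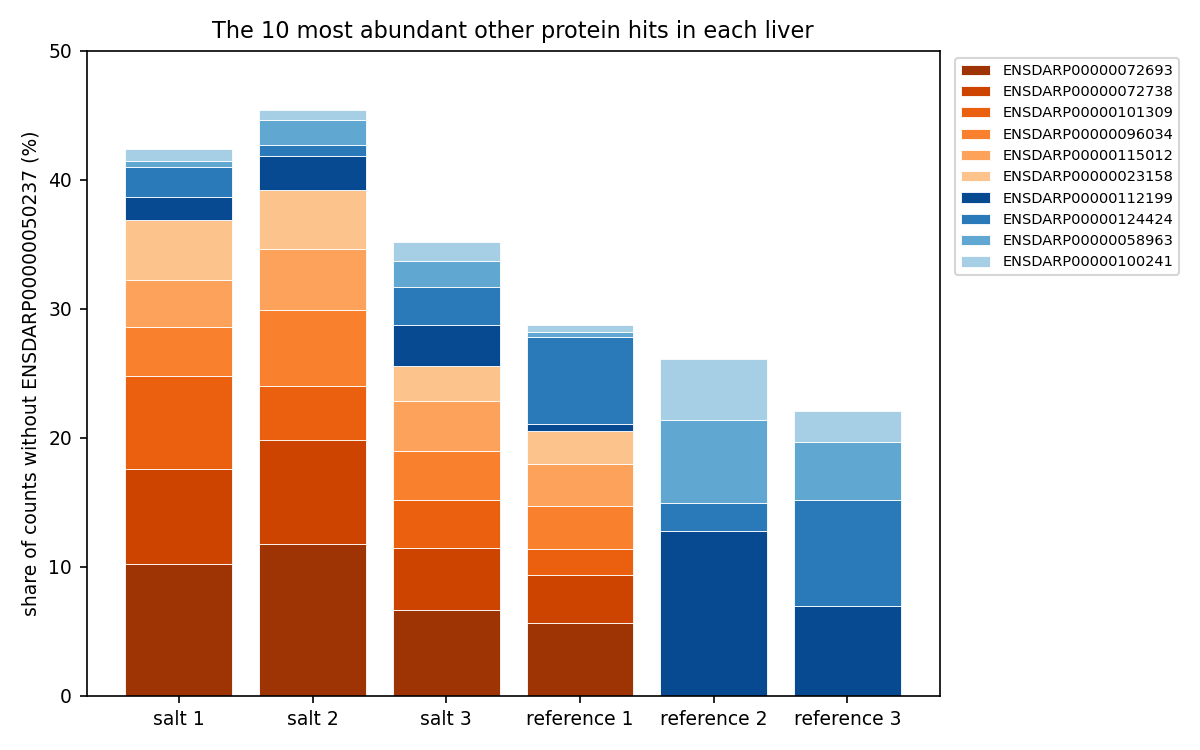
Share of the counts left without ENSDARP00000050237 (%) taken by the 10 other hits with the highest mean share, stacked per liver. The 6 hits in orange sum to 36.9%, 39.2% and 25.6% in salt livers and 20.5% in reference 1 and are invisible in reference 2 and reference 3, where the 4 hits in blue sum to 26.1% and 22.0%.

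The split was also counted with a limit of 3 counts, which leaves out 5 of the 6 hits above and keeps ENSDARP00000023158. Of 10409 hits tested, 7 had at most 3 counts in reference livers 2 and 3 and at least 100 in each of the other 4 livers, and 0 showed the reverse. The most abundant of the 7 was ENSDARP00000023158, with 1100506, 577698 and 522285 counts in salt livers, against 499778, 1 and 1 in reference livers. ENSDARP00000061164 followed with 273683, 187795 and 241738 counts in salt livers, against 190769, 3 and 0 in reference livers. ENSDARP00000079306 had 14772, 6374 and 14763 counts in salt livers, against 8504, 0 and 0 in reference livers. These 7 were picked out after their values were seen. ENSDARP00000102472, also among the 7, is a later hit of DN2838_c0_g1_i7, a transcript counted under the dominant hit.

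The same split was visible over all 10409 hits tested, which still include the hits named for it above. Over log2 CPM of the 10409 hits, reference liver 1 correlated with the salt livers at Pearson's r of 0.810 to 0.826, and with reference livers 2 and 3 at 0.761 and 0.765. The salt livers correlated with each other at 0.823 to 0.843, and reference livers 2 and 3 at 0.806. These correlations run across hits within pairs of libraries and describe likeness only, since hits are not independent replicates. On the first principal component, with 29.9% of the variance, the salt livers lay at -50.7, -38.1 and -36.4, against -37.2 for reference liver 1 and 80.9 and 81.5 for reference livers 2 and 3. The second component, with 20.0%, set reference liver 1 at -77.3, away from salt livers 2 and 3 at 39.5 and 59.5. The first component did not separate the stations.

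**Figure D3:**
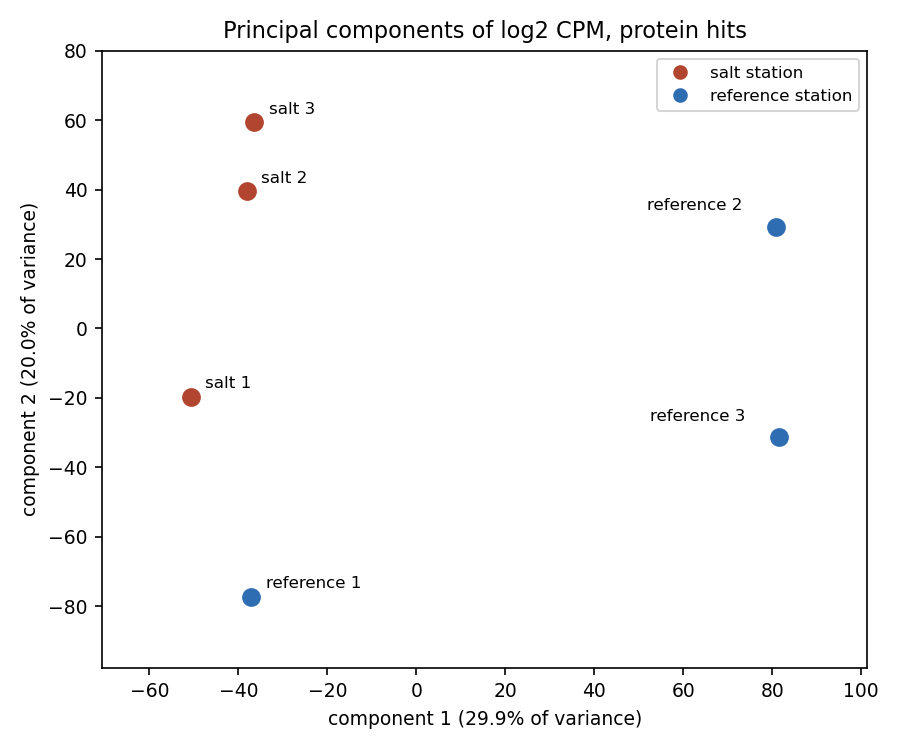
Principal components of log2 CPM over 10409 protein hits, component 1 (29.9% of variance) across and component 2 (20.0%) up, 1 point per liver. Reference 1 lies at -37.2 on component 1, beside the 3 salt livers and away from reference 2 and reference 3 at 80.9 and 81.5.

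In liver 4 mitochondrial entries are named in the identifiers, and 3 of them set reference liver 2 apart. The cytochrome c oxidase subunit entry FUGRUmt_COX1_16714_3, part of the respiratory chain, had 601 to 1652 counts in salt livers, against 1305, 246156 and 1477 in reference livers. Entry XENTRmt_YP_203382.1 had 17896 to 32706 counts in salt livers, against 35799, 1 and 37050 in reference livers. Entry XENTRmt_YP_203380.1 had 0, 0 and 1 counts in salt livers, against 1, 16849 and 48 in reference livers. The other entry, XENTRmt_YP_203372.1, had 39, 17 and 79 counts in salt livers, against 51, 22 and 11 in reference livers, with reference liver 2 inside the range of the rest. The brain library with the same fish code showed the same exchange, with 3248 to 4617 COX1 counts in salt brains, against 4680, 551866 and 3369 in reference brains. XENTRmt_YP_203382.1 had 128755 to 192642 counts in salt brains, against 161027, 11 and 117340 in reference brains.

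Across all hits, no single difference between the stations passed the adjusted threshold in edgeR's test, while some did in DESeq2's. edgeR's quasi-likelihood test called 0 of 10409 hits (0%) at an adjusted p under 0.05, and the smallest adjusted p was 0.685. At an unadjusted p under 0.05 it found 698 hits, or 6.71%, of which 370 (3.55%) were higher and 328 (3.15%) lower in salt livers. DESeq2's Wald test on the same counts called 190 of 10564 hits, or 1.8%, with 97 (0.918%) higher and 93 (0.88%) lower. Of those 190 calls, 162 had groups that did not overlap, 21 were at 0 in all 3 salt livers and 3 were at 0 in all 3 reference livers. Over all hits, 7.34% had the salt livers above and 6.27% below without overlap, and 102 (0.954%) were at 0 in a whole group. The biological coefficient of variation, the spread of true levels between fish of a group as edgeR estimates it, was 0.629 for hits.

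The balance of directions depended on scaling. Without scaling factors the unadjusted p fell under 0.05 for 135 higher and 736 lower hits, and the median log2 fold change of all hits was -0.37, against -0.06 with TMM. Directions below are relative to the bulk of the hits, and the named hits and genes kept theirs without scaling factors.

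**Figure D4:**
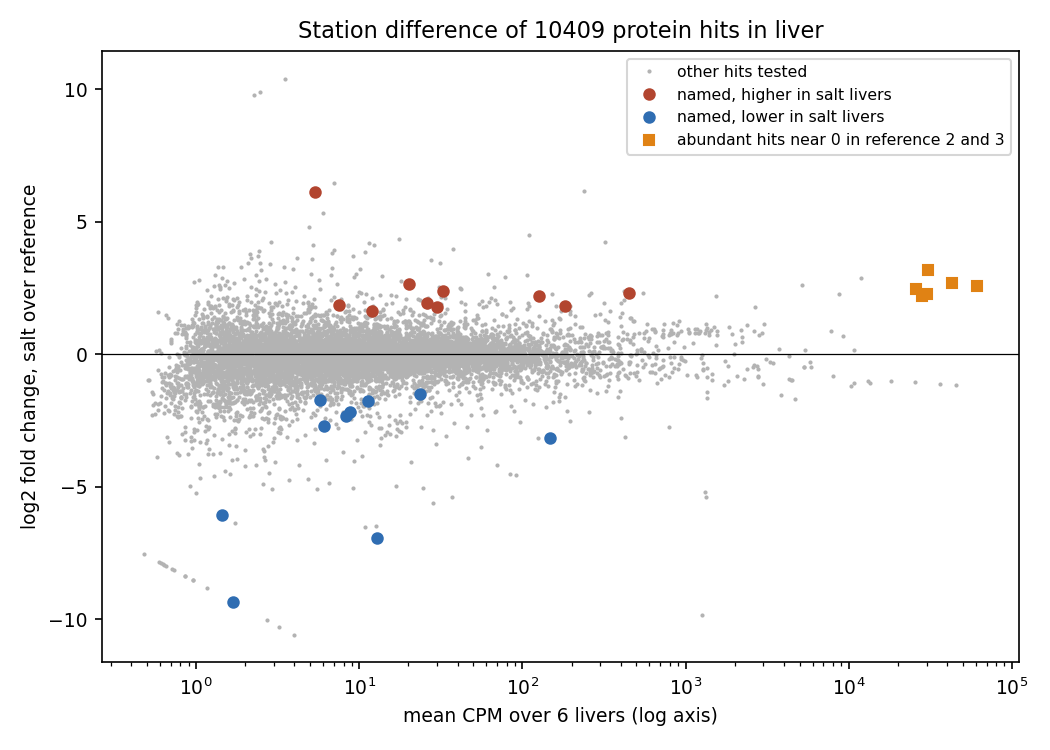
Log2 fold change, salt over reference, against mean CPM over the 6 livers (log axis) for the 10409 protein hits tested. Red and blue points are the 10 hits named as higher and the 10 named as lower in salt livers. Orange squares are the 6 abundant hits near 0 in reference livers 2 and 3, at log2 fold changes of 2.19 and above, which rest on reference liver 1.

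Groups that did not overlap were found for 764 hits (7.34%) with salt livers above and 653 (6.27%) with salt livers below. With a mean of at least 50 counts over the 6 livers, these numbers were 693 (7.74%) and 529 (5.91%) of 8950 hits. The 10 of either direction whose unadjusted p was smallest are described here. All 20 had adjusted p between 0.685 and 0.697 in edgeR's test, and all 20 were among the DESeq2 calls. They were chosen on these same counts, so the DESeq2 calls follow in part from the choice and are no separate support. DESeq2 called 1.8% of all hits. For the 10 higher hits reference liver 1 was the nearest reference to the salt livers in 2, the farthest in 3 and between the others in 5. Without reference liver 1 their log2 fold changes ran from 1.59 to 5.96 (edgeR adjusted p from 0.182 to 0.302), and none moved by more than 0.25.

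ENSDARP00000093456 was the most even of the higher hits. It had 766, 737 and 763 CPM in salt livers, against 161, 166 and 126 CPM in reference livers. Its lowest salt liver was 4.46 times its highest reference liver, and the log2 fold change was 2.32 (SE 0.30). All its counts came from 1 Trinity gene, DN4594_c0_g1, with 6 transcripts, of which 5 separated the groups on their own. The leading transcript DN4594_c0_g1_i11 carried 87.4% of the counts. The sixth, DN4594_c0_g1_i1, had 645, 0 and 0 counts in salt livers, against 0, 341 and 41 in reference livers and varied within both groups.

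ENSDARP00000010970 had 202, 179 and 243 CPM in salt livers, against 48.8, 54.0 and 31.9 CPM in reference livers. Its log2 fold change was 2.21 (SE 0.32), and both of its transcripts separated the groups. Another transcript of its Trinity gene DN46709_c0_g1 has another first hit, ENSDARP00000112522, with 24.7, 19.3 and 22.7 CPM in salt livers, against 5.98, 0.704 and 7.27 CPM in reference livers. All transcripts of that gene were thus higher in the 3 salt livers.

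ENSDARP00000080290 was also among the abundant higher hits. It had 325, 336 and 193 CPM in salt livers, against 82.0, 80.5 and 79.0 CPM in reference livers, with a log2 fold change of 1.82 (SE 0.32). The reference livers were nearly equal, while salt liver 3 was lower than the other salt livers. Its transcript DN1231_c1_g1_i8, tagged with 2 transmembrane segments, held 72.5% of the counts and separated the groups. The other, DN1231_c1_g1_i5, had 2527, 1357 and 49 counts in salt livers, against 34, 615 and 1430 in reference livers, and did not.

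At intermediate levels, ENSDARP00000103670 had 43.2, 38.9 and 56.6 CPM in salt livers, against 15.95, 11.4 and 12.5 CPM in reference livers. ENSDARP00000034051 had 26.6, 41.0 and 55.7 CPM in salt livers, against 8.09, 11.4 and 13.0 CPM in reference livers. ENSDARP00000101515 had 18.6, 36.0 and 49.1 CPM in salt livers, against 3.39, 8.30 and 4.75 CPM in reference livers. The log2 fold changes of these 3 were 1.80 (SE 0.27), 1.92 (SE 0.36) and 2.65 (SE 0.50). For the last pair salt liver 1 was the lowest of the salt livers and salt liver 3 the highest. ENSDARP00000034051 separated the groups in 4 of its 5 transcripts, and 4 of the 5 carry a tag of 1 transmembrane segment.

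FUGRU_jgi_Takru4_712238_fgh5_pm.C_scaffold_103000016, a single transcript, had 29.1, 58.1 and 77.1 CPM in salt livers, against 11.4, 8.20 and 12.02 CPM in reference livers. ENSDARP00000067907 had 19.7, 16.9 and 17.6 CPM in salt livers, against 5.60, 6.92 and 5.13 CPM in reference livers. ENSDARP00000076010 had 215, 171 and 182 counts in salt livers, against 68, 133 and 100 counts in reference livers. Their log2 fold changes were 2.37 (SE 0.41), 1.62 (SE 0.24) and 1.85 (SE 0.33). In CPM, the lowest salt liver of each hit was above the highest reference liver by a factor of 2.34 to 2.45. The counts given for ENSDARP00000076010 are not scaled for library size, so they do not show this factor.

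The log2 fold change farthest from 0 among the 10 higher hits belonged to a hit near 0 in the reference livers. FUGRU_jgi_Takru4_604889_e_gw2.50.378.1 had 100, 48 and 385 counts in salt livers, against 2, 5 and 7 in reference livers. That is 4.43, 4.23 and 23.1 CPM in salt livers, against 0.0941, 0.153 and 0.177 CPM in reference livers, with a log2 fold change of 6.14 (SE 0.94), or 4.87 without salt liver 3. The height of salt liver 3 came from transcript DN76567_c0_g1_i17, with 12, 29 and 353 counts in salt livers, against 2, 5 and 7 in reference livers. The other transcript, DN76567_c0_g1_i7, had 88, 19 and 32 counts in salt livers and 0 in all reference livers.

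**Figure D5:**
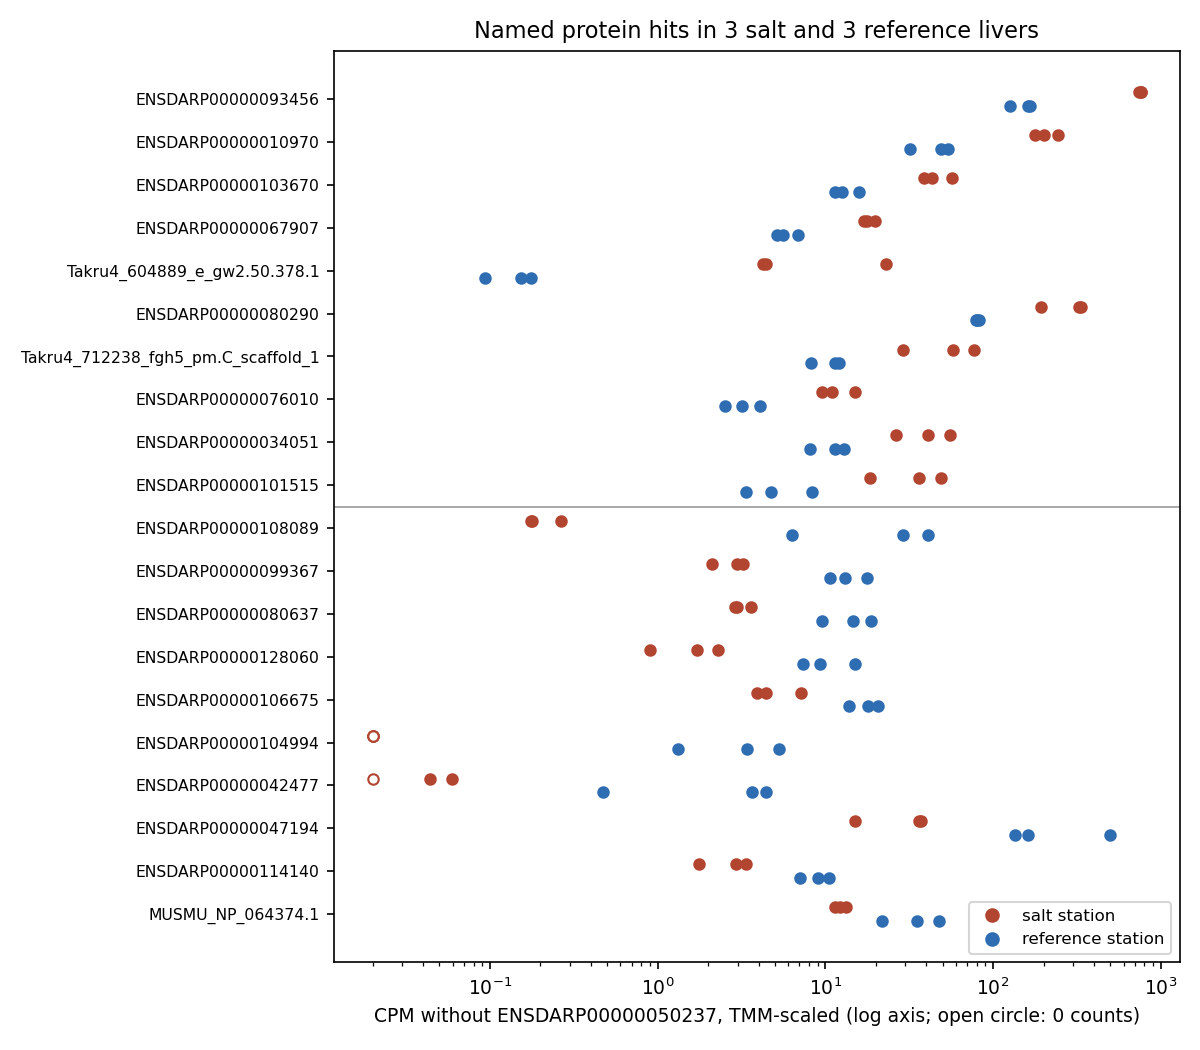
CPM of the 20 named protein hits (log axis), 1 row per hit, red points for the 3 salt livers above blue points for the 3 reference livers, open circles for 0 counts. The upper 10 rows are the hits higher in salt livers and the lower 10 the hits lower in salt livers; in no row do the groups overlap, which is how the rows were chosen.

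For the 10 lower hits, reference liver 1 was the reference nearest to the salt livers in 6, the farthest in 2 and between the others in 2. Without reference liver 1 their log2 fold changes ran from -9.74 to -1.75, with edgeR adjusted p from 0.142 to 0.297. ENSDARP00000108089 had the smallest unadjusted p of all hits. Its single transcript had 4, 3 and 3 counts in salt livers, against 870, 206 and 1151 in reference livers. That is 0.177, 0.264 and 0.180 CPM in salt livers, against 40.9, 6.31 and 29.1 CPM in reference livers, with a log2 fold change of -6.94 (SE 0.86). The lowest reference liver, number 2, was still 23.9 times the highest salt liver. Without reference liver 2 its edgeR adjusted p was 0.0420, the sole call of that fit.

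ENSDARP00000047194 was the most abundant of the lower hits. It had 15.1, 36.1 and 37.3 CPM in salt livers, against 499, 136 and 162 CPM in reference livers, and a log2 fold change of -3.17 (SE 0.67). Reference liver 1 was the highest here, and without it the log2 fold change was -2.34. All 3 of its transcripts separated the groups, and DN9267_c1_g1_i4 held 96.7% of the counts. The other transcripts, DN9267_c1_g1_i1 and DN9267_c1_g1_i5, were at 0 in every salt liver, against 154, 155 and 125 counts and 180, 41 and 94 counts in reference livers.

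A pair of the lower hits had next to no counts in the salt livers. ENSDARP00000104994 had 0 counts in every salt liver, against 28, 173 and 135 in reference livers. With 3 counts allowed in each salt liver, its mean CPM was at least 17.4-fold lower there. Another transcript lists this accession as a later hit, and with it included the values were 0.399, 1.498 and 1.92 CPM in salt livers, against 1.32, 6.55 and 3.84 CPM in reference livers, so the groups overlapped. ENSDARP00000042477, a single transcript, had 1, 0 and 1 counts in salt livers, against 10, 144 and 145 in reference livers.

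In ENSDARP00000080637 and ENSDARP00000099367 the groups separated in the sum over transcripts, while the transcripts that held the counts varied from fish to fish. ENSDARP00000080637 had 3.63, 2.91 and 3.00 CPM in salt livers, against 9.55, 14.7 and 18.6 CPM in reference livers (log2 fold change -2.17, SE 0.34). Its 3 transcripts belong to gene DN24681_c0_g1. Salt liver 1 had 82 counts, all on transcript DN24681_c0_g1_i1, salt liver 2 had 33, all on DN24681_c0_g1_i2, and salt liver 3 had 50, all on DN24681_c0_g1_i3. Reference liver 2 had its 480 counts on DN24681_c0_g1_i3 alone, and none of the 3 transcripts separated the groups. ENSDARP00000099367 had 3.23, 2.12 and 3.00 CPM in salt livers, against 10.6, 17.7 and 13.2 CPM in reference livers (log2 fold change -2.31, SE 0.33). Of its 3 transcripts, DN703_c0_g2_i2 separated the groups, with 0, 0 and 32 counts in salt livers, against 87, 123 and 202 in reference livers.

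ENSDARP00000128060, tagged with up to 10 transmembrane segments, had 39, 26 and 15 counts in salt livers, against 198, 242 and 594 counts in reference livers. ENSDARP00000106675 had 3.94, 7.14 and 4.43 CPM in salt livers, against 18.02, 20.8 and 13.9 CPM in reference livers. Their log2 fold changes were -2.69 (SE 0.49) and -1.77 (SE 0.33). Counting transcripts under every hit they list put the first at -1.76 (edgeR adjusted p = 0.696). The remaining lower hits were ENSDARP00000114140, with 2.92, 1.76 and 3.35 CPM in salt livers against 7.06, 10.5 and 9.07 CPM in reference livers, and a protein with the source code MUSMU. That one, MUSMU_NP_064374.1, had 12.2, 13.3 and 11.4 CPM in salt livers, against 21.9, 35.05 and 47.8 CPM in reference livers (log2 fold change -1.51, SE 0.33). Reference liver 1 was the lowest reference liver for both of these. In MUSMU_NP_064374.1 the transcripts that held the counts also varied from fish to fish. Of its 3 transcripts 1 separated the groups, DN6045_c0_g3_i11. Another, DN6045_c0_g3_i2, had 117, 102 and 92 counts in salt livers, against 0, 0 and 663 in reference livers.

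Trinity genes, which also cover the 7827 transcripts without a protein hit, gave the same call. edgeR called 0 of 14349 genes (0%), with 928 (6.47%) at an unadjusted p under 0.05, 484 (3.37%) higher and 444 (3.09%) lower in salt livers. DESeq2 called 265 of 14639, or 1.81%, 140 (0.956%) higher and 125 (0.854%) lower. The biological coefficient of variation of genes was 0.681. Groups did not overlap for 1057 genes (7.37%) with salt livers above and 923 (6.43%) with salt livers below, and for 897 (8.05%) and 645 (5.79%) of the 11140 with a mean of at least 50 counts. Of the 8 genes named by the same rule, 4 in each direction, 5 carry hits described above, DN4594_c0_g1, DN46709_c0_g1, DN21247_c0_g1, DN703_c0_g2 and DN24681_c0_g1.

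The other 3 carry no protein hit. DN326_c0_g5, a single transcript, had the smallest adjusted p of any feature here, 0.248 in edgeR's test. It had 39.7, 24.4 and 19.7 CPM in salt livers, against 0.647, 0.581 and 0.290 CPM in reference livers, and a log2 fold change of 5.79 (SE 0.50). Its lowest salt liver was 30.5 times its highest reference liver, and without reference liver 1 the adjusted p was 0.0719. DN6060_c2_g2 had 176, 192 and 194 counts in salt livers, against 2, 0 and 2 in reference livers. Scaled for library size it was less even, at 7.68, 17.4 and 11.8 CPM in salt livers. Of its transcripts, DN6060_c2_g2_i1 had 176, 75 and 0 counts in salt livers and DN6060_c2_g2_i2 had 0, 117 and 194, so that the sum was more even across the salt livers than either part. DN174_c0_g3 had 3, 0 and 1 counts in salt livers, against 161, 166 and 79 in reference livers.

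Among genes whose groups did not overlap, those with a hit were more often higher and those without one more often lower, while both medians were negative. Among 9936 genes with a hit, 8.16% had all salt livers above and 5.39% all salt livers below, with a median log2 fold change of -0.04. Among 4413 genes without one, the shares were 5.57% above and 8.77% below, with a median of -0.19. Over all 14349 genes the median was -0.07. These are descriptions without a test, and the medians are of the size that scaling moves.

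Single transcripts were often at 0 in some of the livers. Of 31548 transcripts outside the dominant hit, 14448 (45.8%) had 0 counts in at least 1 liver. That held for 2099 of 14891 genes (14.1%) and for 1267 of 10692 hits (11.9%) after summing. A sum is at 0 only where all its parts are, so a lower share after summing was fixed in advance. The share of transcripts at 0 was 16.7%, 20.3% and 18.4% in salt livers, against 16.2%, 11.1% and 13.2% in reference livers. Of the salt livers, number 2 had the fewest counts and the largest share at 0.

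Some transcripts split exactly by station. At least 10 counts in every salt liver and 0 in every reference liver were found for 68 transcripts, or 0.216% of those in the table. The reverse, 0 in every salt liver and at least 10 counts in every reference liver, was found for 220, or 0.697%. Most stood in genes with other transcripts, 64 of the 68 and 203 of the 220. These counts were not scaled for depth. Salt livers mostly had fewer remaining counts and had a larger share of transcripts at 0, so the 68 and the 220 are not on equal terms. The summed counts of the 64 genes that hold the first kind had a median absolute log2 fold change of 0.35, and those of the 191 genes that hold the second kind 0.42, against 0.41 for all genes tested. Of the 64 genes, 56 lay within 1 on the log2 scale, as did 163 of the 191. Groups of the summed counts did not overlap for 17 of the 64 (26.6%) and 47 of the 191 (24.6%), where 7.37% of all genes had the salt livers above and 6.43% below. The signed median was 0.01 for the 64 and -0.32 for the 191, against -0.07 for all genes. The transcripts that picked these genes are part of the sums. A raised share apart or a shifted median thus follows in part from the choice.

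A set of 12 genes held transcripts of both kinds. DN4100_c0_g1, chosen as an example after its values were seen, has 8 transcripts. Transcript DN4100_c0_g1_i5 had 854, 478 and 1160 counts in salt livers and 0 in all reference livers. Transcript DN4100_c0_g1_i10 had 0 counts in all salt livers, against 1135, 765 and 1402 in reference livers. The gene as a whole had 168, 210 and 213 CPM in salt livers, against 124, 92.4 and 104 CPM in reference livers, with a log2 fold change of 0.88 and an edgeR adjusted p of 0.730. DN8937_c0_g1 is another, with 290, 121 and 79 counts of DN8937_c0_g1_i16 in salt livers and 0 in all reference livers, and 0 counts of DN8937_c0_g1_i23 in all salt livers, against 199, 69 and 161 in reference livers. Its sum of 12.6, 10.95 and 9.62 CPM in salt livers stood against 9.20, 8.07 and 8.65 CPM in reference livers.

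The brain libraries carry the same fish codes as the livers, number by number. In brain and gills the split was counted more loosely. Any count above 0 in every library of a group was enough, where liver needed at least 10. The shares of all brain and gill transcripts use this looser limit too. Of the 68 transcripts seen in all salt livers alone, 52 are in the brain table. There 27 of them (51.9%) showed the split in the same direction, against 0.362% of all brain transcripts. Of the 220 seen in all reference livers alone, 182 are in the brain table and 43 (23.6%) showed it, against 0.434% of all brain transcripts. In gills 0 of 43 and 0 of 187 showed it, against 0.254% and 0.152% of all gill transcripts. Of the 6 gill libraries, 5 carry another fish code than the liver of the same number, and some of these carry the code of another salt liver. The part of the sampled fish in these shares was not tested. In earlier results of these data a gill library labelled salt went against its label. A single such library can bring a split of all 6 gill libraries to 0, so the gill counts do not show whether the split is absent there.

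The named hits were also looked up in the other tissues. Of the 10 higher hits, 8 were tested in brain, where the log2 fold change had the same direction in 6 (median of the 8, 0.70). The groups separated the same way as in liver in 2, ENSDARP00000076010 and ENSDARP00000034051. They separated the opposite way in 2 others, ENSDARP00000067907 and FUGRU_jgi_Takru4_712238_fgh5_pm.C_scaffold_103000016. Groups separated upward for 870 of all 14202 brain hits (6.13%) and downward for 1096 (7.72%). ENSDARP00000034051 had 11.3, 18.2 and 18.6 CPM in salt brains, against 9.62, 8.54 and 9.18 CPM in reference brains. ENSDARP00000093456 had 19.2, 27.2 and 43.9 CPM in salt brains, against 11.7, 22.3 and 11.9 CPM in reference brains, where the groups overlapped.

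Of the 10 lower hits, 7 were tested in brain, with the same direction in 5 (median of the 7, -0.09) and the groups apart in 1. That one was ENSDARP00000108089, with 0, 0.130 and 0.0409 CPM in salt brains, against 19.7, 4.29 and 11.4 CPM in reference brains. The order of the reference fish was the same in liver and brain, number 1 highest and number 2 lowest. In gills this hit had 30.1, 3.29 and 112 CPM in the libraries labelled salt, against 87.4, 81.4 and 93.3 CPM in the reference libraries. The gill library with the code of liver salt 3 is the one at 30.1 CPM, and the library with the code of liver salt 1, at 112 CPM, lay above all reference gills.

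ENSDARP00000099367 and ENSDARP00000042477 were low in salt livers but not in salt brains. ENSDARP00000099367 had 159, 122 and 145 CPM in salt brains, against 140, 165 and 148 CPM in reference brains. ENSDARP00000042477 had 17.97, 17.2 and 14.0 CPM in salt brains, against 15.4, 13.2 and 13.2 CPM in reference brains. Both had more CPM in every brain than in any liver, on values scaled separately in each table. In gills 8 of the higher hits and 6 of the lower hits were tested, and 7 and 4 had the same direction. Median log2 fold changes were small, 0.18 for the 8 and -0.21 for the 6. ENSDARP00000034051 counted as the same direction at 0.00205 (SE 0.26), so the direction alone says little about these hits. Groups separated for 0 and 0 of them, where 422 (2.93%) and 461 (3.2%) of 14395 gill hits separated upward and downward. The gill library that went against its label in earlier results could bear on these counts too, which was not tested.

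Hits were also grouped by the tags in the identifiers. A signal peptide tag stood on most transcripts and was not read as secretion. Hits with 4 transmembrane segments, the number in several families of channel subunits and junction proteins, had all salt livers above in 5 (3.36%) and below in 6 (4.03%) of 149. Hits with 7 segments, the number in G protein-coupled receptors, had all salt livers above in 9 (8.11%) and below in 6 (5.41%) of 111. Hits with at least 12 segments, as in many solute carriers, had all salt livers above in 8 (9.20%) and below in 4 (4.60%) of 87. Over all hits the shares were 7.34% above and 6.27% below. The median log2 fold changes were -0.11, -0.03 and -0.34, against -0.06 for all hits, with no test.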

How the data were processed

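RNA of the livers was extracted with a column kit and made into TruSeq libraries, per the labels' protocols. The table the authors deposited holds raw counts per transcript. The series description says that assembly was de novo, and the identifiers are Trinity's. The submitters' processing notes name Trimmomatic and DESeq2. Aligner, counter and annotation tool are not stated in the sources used here. Every one of the 31568 transcripts reached at least 1 CPM in at least 2 livers, as checked on the counts. Libraries were grouped by their titles and matched to columns by their codes, with 3 fish per station.

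From these counts, sums were made per Trinity gene and per first listed protein hit (795 hits join several genes), leaving out transcripts whose first hit is DANRE_ENSDARP00000050237. Salt was compared with reference in the 6 livers with edgeR 4.0.16 in R 4.3.3 (filterByExpr, TMM, quasi-likelihood F test, two-sided), adjusted by Benjamini-Hochberg over all features, with a threshold of 0.05. A standard error is the log2 fold change over the square root of F. Brain and gills were fitted alone in the same way. The share of the 10 leading hits was compared with an exact permutation test, two-sided; the share of the dominant hit is given without a test. Alternatives used DESeq2 1.42.0, limma 3.58.1, other scalings and filters, and leaving out each liver. The scripts were tested on simulated data.

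Features named are those called by edgeR, up to 10 hits and 4 genes per direction. Since it called none, places went, by smallest unadjusted p, to those whose groups do not overlap and whose mean is 50 counts or more. The dominant hit, the 10 other hits of highest mean share and the mitochondrial entries were named as well. Gene lists by symbol had been drawn up for liver, pancreas, blood and ion transport, but the files pair no accession with a symbol, so they were not tested. The members, lists and tests were chosen with earlier results of these data known. Library depth is 22183499 to 39881549 counts.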

Additional observations from a re-analysis of the deposited data

Results flagged for a closer look

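For 2 of the named hits the salt fish stood above all reference fish in liver and below all of them in brain. The difference between the tissues was not tested. ENSDARP00000067907 had a log2 fold change of 1.62 in liver and -0.725 in brain, where it had 11.9, 15.8 and 12.1 CPM in salt brains, against 26.1, 19.2 and 20.6 CPM in reference brains. FUGRU_jgi_Takru4_712238_fgh5_pm.C_scaffold_103000016 had a log2 fold change of 2.37 in liver and -0.14 in brain, where it had 14.1, 13.5 and 12.5 CPM in salt brains, against 15.1, 14.3 and 14.9 CPM in reference brains. The brain values of the second hit nearly touch.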

How the results depend on the processing

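Counts of calls moved with the tool and with reference liver 1. DESeq2 called 190 hits and 265 genes, against 0 and 0 with edgeR. Leaving out each liver in turn gave 0 to 5 called hits and 0 to 16 called genes with edgeR. The 5 hits, of 10617 tested, and the 16 genes, of 14752, came without reference liver 1. The hits were ENSDARP00000023158, ENSDARP00000072693, ENSDARP00000072738, ENSDARP00000079306 and ENSDARP00000096034. All of these hits and genes had at most 13 counts in reference livers 2 and 3, but at least 218 in reference liver 1. They thus show the split of the livers described above. Genes DN2838_c0_g1 and DN85496_c0_g1, among the 16, also hold transcripts of the dominant hit. Without reference liver 2, 1 hit was called, and without reference liver 3, 1 gene was called, DN87038_c0_g1 with 3, 1 and 1 counts in salt livers, against 2052, 2541 and 1 in reference livers. At an unadjusted p under 0.05 these fits found 466 to 1097 hits and 666 to 1547 genes. They tested 10494 to 10659 hits and 14534 to 14808 genes. Without scaling factors 179 of 14349 genes were higher and 1062 lower at that unadjusted p, against 484 and 444 with TMM. Leaving out 1 liver put the difference in the dominant hit's share between 24.4 and 38.9 percentage points, and that of the 10 leading hits between 4.90 and 10.9. The same 10 hits in every liver gave 15.3 and 50 hits gave 6.25. Replicate numbers were not used to pair the fish in the main fit. Deviations of same-numbered livers correlated at 0.0732, 0.0286 and 0.0205, and those of other pairs at -0.0954 to 0.0702. These correlations run across hits of a few fish and cannot settle whether the numbers pair them. With a replicate block edgeR called 0 of 10409 hits and 0 of 14349 genes, with 540 and 742 at an unadjusted p under 0.05. Over 38 named features and 14 settings, 489 of 524 values kept direction and side of the threshold, 33 passed it, and 2 turned round. Those were DANRE_ENSDARP00000112199, with a log2 fold change of 0.0513 under limma voom, and DANRE_ENSDARP00000100241, with -1.48 without reference liver 1 and 0.0190 without reference liver 2; the cause was not tested. Depth limits hits with a handful of counts in a group, whose fold changes are loose.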
